A study of Drosophila melanogaster with 24 samples.

Results

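Brains of injured *tau*-KO flies were compared at 2 h and at 1 h post-TBI, over both sexes and without the uninjured controls. The 12 libraries labelled as injured brains at these times were taken of 24 in the series: 3 of females and 3 of males at 1 h, and 3 of females and 3 of males at 2 h. The other 12 libraries, of uninjured controls and of brains at 4 h, entered no main test and are given only as ranges. They entered an alternative fit of all 24 libraries and the scaling of the printed levels. The question was which transcripts differ between the first and the second hour after a blow to the head, and whether any difference is shared by the sexes.

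All 24 libraries, controls included, came from *Drosophila melanogaster* of the strain labelled Tau-KO, in which exons 2 to 6 of *tau* are deleted, so no library here has an intact *tau* gene. These exons encode the repeats with which the tau protein binds microtubules. The flies were mated adults aged 10 to 14 days, injured by a single strike of a spring-driven high-impact trauma device that throws a vial of flies against a pad. Every library was made from 1 brain, with polyadenylated RNA read from its 3′ end. The deposited counts are per gene and do not say in which exon a read lies, so they do not check the deletion. Counts assigned to *tau* were 103 to 190.4 CPM (counts per 1000000, scaled with TMM factors) in the 12 libraries, with a log2 FC (fold change, 2 h over 1 h) of 0.01 ± 0.24 (SE).

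In flies, sterile or septic injury activates the Imd and Toll pathways of innate immunity. Bacterial cell wall fragments that contain diaminopimelic acid trigger Imd signalling, which cleaves Relish (*Rel*), an NF-κB protein, and cleaved Relish enters the nucleus and switches on genes for antibacterial peptides such as attacins, cecropins and diptericins. *Rel* is itself among the genes that Relish induces. The Toll pathway acts through the NF-κB proteins Dif and Dorsal and induces the antifungal peptide drosomycin. Fat body in the head, glia and blood cells all make such peptides, and a dissected brain can carry some of these tissues, as well as retina. In RNA from a whole brain, fewer cells of a type and less RNA per cell cannot be told apart.

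Libraries held between 290304 counts in genes (male 1 h 3) and 1880528 (male 1 h 2), and the median was 804226.5. In 6 libraries the total was over 1000000: female 1 h 2, male 1 h 1 and 2, female 2 h 1 and 2, and male 2 h 2. Each time thus holds 3 of them, but most are male at 1 h and female at 2 h. The first principal component took 54.9% of the variance. Libraries over 1000000 counts differed from those under it at 1113 of 6862 genes at FDR under 0.05 (16.2%), far more than the times did. In the shallowest library 3 counts correspond to 10.3 CPM and in the deepest to 1.60 CPM, and a gene under these levels is not separable from 0 there.

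All 14 neuron markers had a count in every library, and they summed to 1719 to 4810 CPM. Photoreceptor markers (6058 to 21607 CPM) and fat body markers (9683 to 20512 CPM) summed higher in every library, so the counts do not tell a dissected brain from a brain with other tissues of the head. Male 1 h 1 and male 1 h 2 stood apart. Testis and accessory gland markers summed to 390 and 141 CPM there and to 0 to 20.9 CPM in the other 10 libraries, and in controls to 2.06 to 19.9 CPM. In male 1 h 1 there were 14 of 22 such markers with a count, in male 1 h 2 there were 6, and 8 of the 22 (*bam* and *Acp26Aa* among them) were at 0 in all 12 libraries. *SP*, which encodes the sex peptide of the accessory gland, had 48 and 21 counts in these libraries and 0 in the other 10. Male 1 h 2 also held 775 CPM of muscle markers against 4270 to 5166 elsewhere, 69.2 CPM of gut markers against 987 to 1742, and 21607 CPM of photoreceptor markers against 6058 to 12818. Its log2 profile correlated with the mean of the other 11 libraries at r = 0.657 across 3989 genes, where the other libraries gave 0.877 to 0.974. The part of these tissues in the results was not tested. Many of the values that follow, but not all, are also given without male 1 h 2 or without both libraries.

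The markers of sex did not follow the labels. The RNA *roX1* coats the male X chromosome, yet its range with a female label (816 to 1001 CPM) lay within that with a male label (318 to 1038 CPM). Yolk protein *Yp1* is made by females, and with a female label it stood at 1411 to 5793 CPM. With a male label it stood at 26.7, 332 and 362 CPM in the 3 libraries over 1000000 counts and at 1292 to 1966 CPM in the 3 under it. Females and males below are libraries labelled so, and each direction given for a sex rests on that label.

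Few genes were called between 1 and 2 h, and none passed after adjustment for the number tested. A gene was called where edgeR's unadjusted p was under 0.05 with |log2 FC| over 1, the rule of the study's legends. By that rule 75 of 6862 genes were called (1.09%), 33 higher at 2 h (0.481%) and 42 lower (0.612%), and 94 genes were under p 0.05 at any fold (1.37%). Where no gene differs, a share of 0.05 is nominally under p 0.05, and the share found is below that. At FDR under 0.05 there was no gene by edgeR's quasi-likelihood test, by its likelihood ratio test, by DESeq2 or by limma voom. The edgeR adjusted p was 1.00 for every called gene. The median log2 FC over all tested genes was −0.01, and 3396 genes had a positive value (49.5%). All 75 called genes (100%) had the same sign in females and in males, which a call over both sexes favours.

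**Figure D1:**
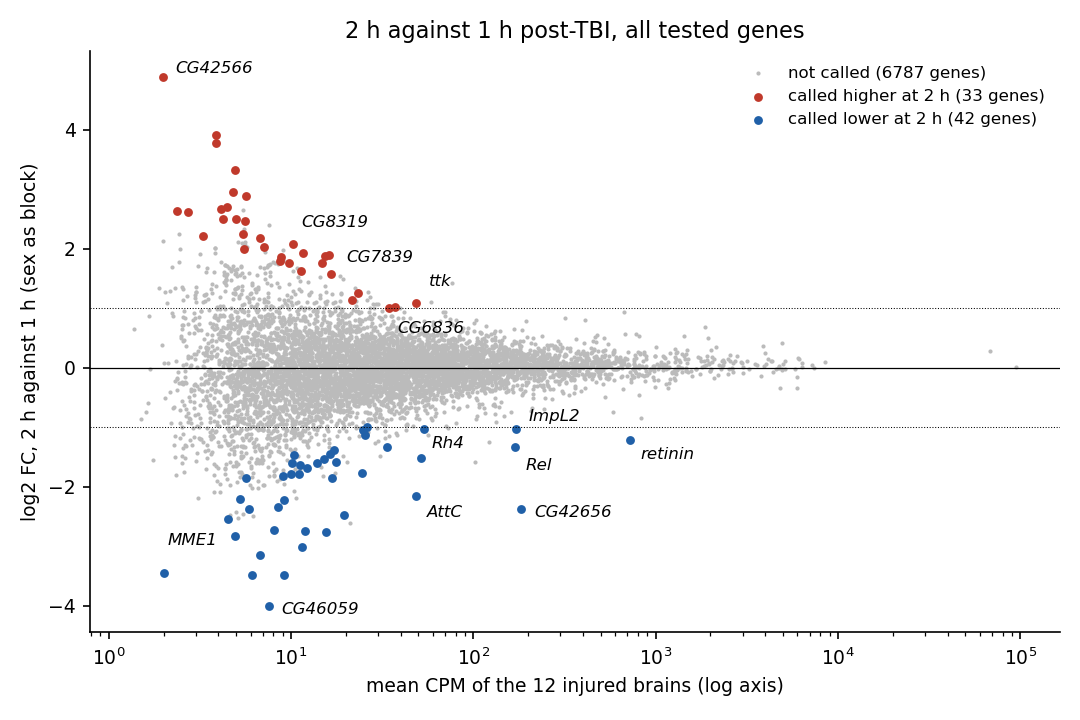
Log2 FC of each tested gene (2 h over 1 h, sex as block) against its mean CPM in the 12 injured brains on a log axis; coloured points are the 33 genes called higher and the 42 called lower, and dotted lines mark |log2 FC| of 1. Most called genes lie at low counts, and the abundant ones among them, *retinin*, *Rel*, *ImpL2* and *CG42656*, are lower at 2 h.

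The calls depended on the libraries that stood apart. Without male 1 h 2, 62 of 6581 genes were called (0.942%), 41 higher (0.623%) and 21 lower (0.319%), and 24 of these were among the 75. Without both male 1 h 1 and 2, 210 of 6306 were called (3.33%), 171 higher (2.71%) and 39 lower (0.618%), with 14 shared. A further 16 of the 42 lower genes, and 0 of the higher ones, then fell under the minimum count and could not be tested. This split follows in part from the filter, since genes higher at 2 h can pass the minimum through libraries at 2 h. With sex left out of the model 79 genes were called, 20 higher and 59 lower, of which 50 were shared. With depth (over or under 1000000) as a term 96 were called (1.40%), 37 higher (0.539%) and 59 lower (0.860%), of which 59 were shared. At FDR under 0.05, 0 of the 75 called genes differed by depth, against 16.2% of all genes. Depth is balanced over the times, so a gene that differs strongly by depth has a wide spread in the main fit and is less readily called. The 0 is therefore no measure of the part of depth in the calls. Leaving out male 2 h 2 gave 44 calls, 14 higher and 30 lower.

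*Rel* had the lowest p of the 75 genes and was lower at 2 h. In females it was at 110.1, 111 and 87.9 CPM at 1 h and at 81.0, 30.5 and 78.5 CPM at 2 h. In males it was at 545, 569 and 111 CPM at 1 h and at 105, 135 and 80.6 CPM at 2 h. The female groups do not overlap, while among males the third library at 1 h lies within the range at 2 h and the other two lie far above it. Over both sexes the log2 FC was −1.33 ± 0.40 (edgeR p 0.00485), with an exact two-sided permutation p of 0.02, where 0.005 is the smallest that the 400 arrangements within sexes allow. It was called in all 12 fits that leave out 1 library, and with depth as a term (−1.26, p 0.00224). Without male 1 h 1 and 2 it was −0.50 (p 0.132) and no longer called. Controls ranged from 56.0 to 198 CPM and brains at 4 h from 62.7 to 114 CPM. *Rel* shares part of its span with *Nmdmc*, and reads from such overlaps may not be told apart where the count ignores strand.

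*AttC*, which encodes an attacin, was the called member of the 11 tested Imd-type peptide genes, where 1.09% of all genes were called. In females its level was 35.5, 24.1 and 14.6 CPM at 1 h and 6.60, 25.9 and 5.07 CPM at 2 h. Among males it was at 156, 272 and 3.07 CPM at 1 h and 24.2, 11.3 and 6.72 CPM at 2 h. The times overlap in both sexes, and the highest levels were again in male 1 h 1 and 2. Its log2 FC was −2.16 ± 0.79 (p 0.0149, exact permutation p 0.145), and −0.31 (p 0.671) without these libraries. Controls spanned 2.42 to 236 CPM, a range that holds all but 1 of the injured libraries.

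The other antibacterial peptide genes did not pass the test over both sexes. In males *AttC*, *CecA1*, *CecA2*, *CecB* and *CecC* were called lower, 5 of the 11 tested, against 3.21% of all genes, and in females 0 were. With sex left out of the model *CecA1* (−1.90, p 0.0271) and *CecA2* (−1.88, p 0.0247) were called as well. *CecA1* and *CecA2*, near-identical cecropin genes whose reads may be split between them, had log2 FC of −1.48 ± 0.85 and −1.48 ± 0.74. *CecA1* was at 136 CPM in male 1 h 2 and at 3.07 to 14.2 CPM in the other 11 libraries. *CecA2* was at 143 and 102 CPM in male 1 h 1 and 2 and at 3.07 to 31.7 CPM elsewhere. *CecB* gave −1.54 ± 1.19 and the diptericin gene *DptA* −0.76 ± 0.68. Of the 11 members 10 had a negative log2 FC, with a median of −0.76, against −0.01 over all tested genes. The median was 0.02 in females and −1.40 in males, and without male 1 h 1 and 2 it was 0.18, so the sign of the list turned with them.

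Genes of the Toll side showed no common shift. *Drs*, which encodes drosomycin, was at 422, 548 and 423 CPM in females at 1 h and at 382, 425 and 332 CPM at 2 h. Male brains held 739, 237 and 319 CPM at 1 h and 474, 1978 and 289 CPM at 2 h, so that 1 library stood high. The log2 FC came to 0.39 ± 0.45 (p 0.392), and 0.23 (p 0.671) without male 1 h 1 and 2. Of 19 tested Toll-type peptide genes 0 were called, 11 were positive and the median was 0.06, or 0.40 without those libraries. Of 35 tested components of both pathways 1 was called, *Rel*, and 23 were negative, with a median of −0.16. Over all genes 1.09% were called.

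**Figure D2:**
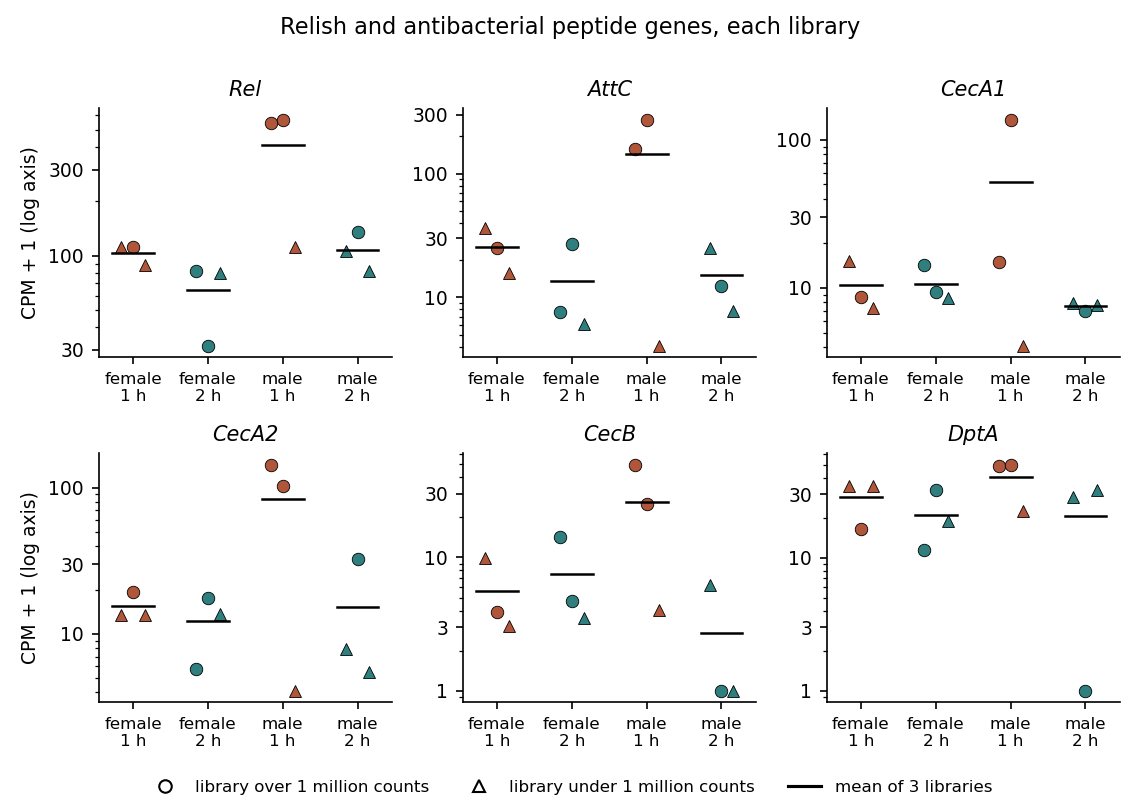
CPM + 1 (log axis) of *Rel* and 5 antibacterial peptide genes in each of the 12 libraries by sex and time; circles are libraries over 1000000 counts, triangles those under, and lines the mean of 3 libraries. Male 1 h 1 and 2 (circles) hold the highest *Rel*, *AttC*, *CecA2* and *CecB*, and male 1 h 2 alone the high *CecA1*.

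Genes expressed in the eye were also among the lower calls. *retinin*, which encodes a protein of the corneal lens, was at 412, 550.1 and 561 CPM in females at 1 h and at 223, 364 and 403 CPM at 2 h. In males the level was 610.4, 3765 and 454 CPM at 1 h and 545, 348 and 482 CPM at 2 h. The female groups do not overlap, and male 1 h 2 lies far above all other libraries. The log2 FC was −1.21 ± 0.45 (p 0.016), and −0.45 (p 0.0522) without male 1 h 2.

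*Rh4*, an ultraviolet-sensitive opsin of R7 photoreceptors, was at 39.1, 41.5 and 56.5 CPM in females at 1 h and at 13.2, 42.6 and 17.7 CPM at 2 h. Males had 29.9, 261 and 39.9 CPM at 1 h and 25.9, 12.1 and 38.1 CPM at 2 h. Both sexes overlap between the times. The fitted log2 FC was −1.52 ± 0.57 (p 0.0171), and −0.71 (p 0.107) without male 1 h 2. *prom*, a prominin that helps keep rhabdomeres apart, was at 7.10, 8.69 and 2.09 CPM in females at 1 h and at 0 in all 3 at 2 h, and at 131 CPM in male 1 h 2. Its log2 FC of −2.76 ± 1.03 (p 0.0175) became −1.30 (p 0.343) without that library. Of 20 tested photoreceptor markers 1 was called, *Rh4*, against 1.09% of all genes, and 17 were negative. The list median was −0.41 (−0.45 in females and −0.42 in males), and −0.09 without male 1 h 2. Summed photoreceptor markers ranged from 6058 to 21607 CPM at 1 h and from 6143 to 12818 CPM at 2 h.

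Other abundant genes among the lower calls also rested on male 1 h 2. *ImpL2*, which encodes a secreted protein that binds insulin-like peptides, was at 686 CPM in that library and at 56.6 to 209 CPM in the other 11. Its log2 FC was −1.03 ± 0.45 (p 0.0366), and −0.50 (p 0.0968) without it. *CG42656*, chosen after its values were seen, was at 1784 CPM in male 1 h 2 and at 29.4 to 54.4 CPM in the other 11, with a log2 FC of −2.37 ± 1.01 that became −0.34 (p 0.266).

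**Figure D3:**
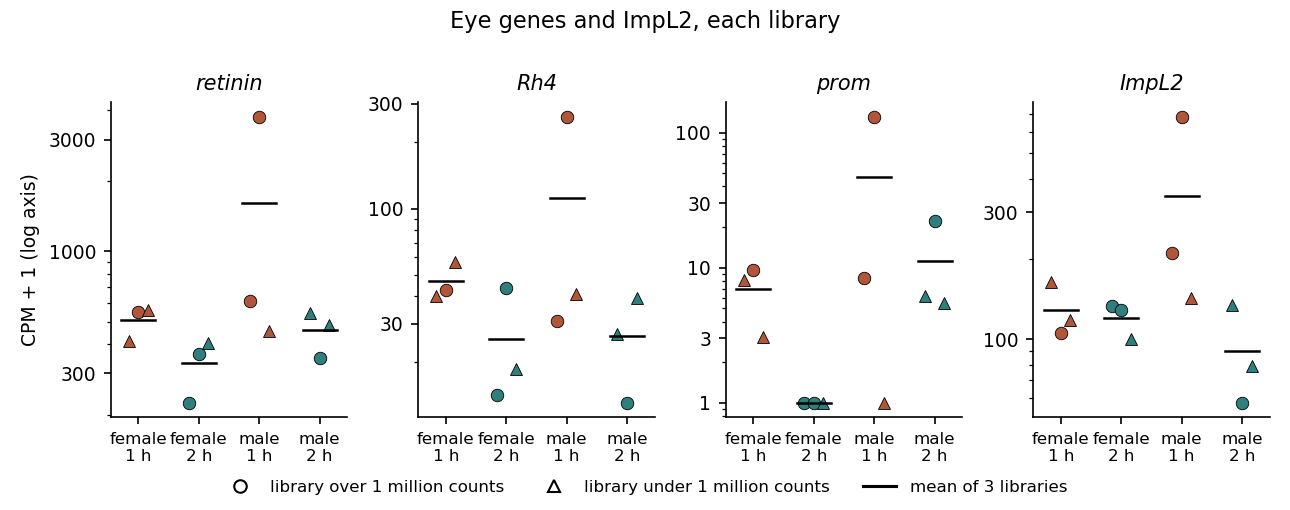
CPM + 1 (log axis) of *retinin*, *Rh4*, *prom* and *ImpL2* in each of the 12 libraries by sex and time; circles are libraries over 1000000 counts, triangles those under, and lines the mean of 3 libraries. Male 1 h 2 is the highest library for each gene, at 3765, 261, 131 and 686 CPM.

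A small set of genes, of which those called were at low counts, separated the times in both sexes. For such genes the permutation test gives its smallest p by construction and is not printed. For 7 of 6862 genes (0.102%) the 6 libraries at 1 h and the 6 at 2 h did not overlap, 3 higher (0.0437%) and 4 lower (0.0583%), and 4 of the 7 were called (0.0583%). Of the 4, *cta* and *CG14764* lie outside the naming rule and were chosen after their values were seen, as were *sax*, *La* and *CG6908* below. Whether 7 separated genes are more than a random split of the libraries would give was not tested.

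*CG8319*, with no function given here, was at 7.10, 5.79 and 4.18 CPM in females at 1 h and at 17, 24.1 and 10.1 CPM at 2 h. In males it was at 4.67, 0 and 3.07 CPM at 1 h and at 8.65, 23.4 and 15.7 CPM at 2 h. Every library at 2 h was above every library at 1 h. The log2 FC came to 2.09 ± 0.76 (p 0.0146), and it was called in all 12 fits that leave out 1 library. Without male 1 h 1 and 2 it was 1.76 (p 0.0128). Controls, at 4.19 to 34.2 CPM, spanned both times.

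*CG14764* was at 5.33, 4.83 and 8.37 CPM in females at 1 h and at 12.2, 18.5 and 10.1 CPM at 2 h. Among males it was at 3.74, 0 and 6.14 CPM at 1 h and at 20.7, 15.1 and 11.2 CPM at 2 h. The times again do not overlap, with a log2 FC of 1.76 ± 0.78 (edgeR p 0.039). It was called in 5 of 12 fits that leave out 1 library, and without male 1 h 1 and 2 it was 1.23 (p 0.0546).

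*MME1*, which encodes a mitochondrial magnesium exporter, was lower at 2 h. Its level in females was 5.33, 7.72 and 8.37 CPM at 1 h and 0, 0 and 2.53 CPM at 2 h. Male brains held 8.41, 18 and 3.07 CPM at 1 h and 1.73, 1.51 and 2.24 CPM at 2 h. No library at 2 h reached the lowest at 1 h, but the nearest libraries, male 1 h 3 and female 2 h 3, each held 1 count. The fitted log2 FC was −2.83 ± 0.95 (p 0.00916), and without male 1 h 2 it fell under the minimum count and was not tested.

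*cta*, which encodes a G protein α subunit of epithelial folding, was at 7.10, 8.69 and 6.28 CPM in females at 1 h and at 0, 5.55 and 2.53 CPM at 2 h. In males the level was 13.1, 12.5 and 6.14 CPM at 1 h and 3.46, 0.75 and 2.24 CPM at 2 h. The times do not overlap, yet the fitted log2 FC of −1.85 ± 0.86 was near the threshold (p 0.0469) and was called in 1 of 12 fits that leave out 1 library.

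The other 3 separated genes had smaller folds and were not called. *CG43778* was at 106 to 142 CPM in the 6 libraries at 1 h and at 145 to 177 CPM in the 6 at 2 h, with a log2 FC of 0.39 ± 0.21. *CG13229* was at 46.0 to 64.5 CPM at 1 h and at 21.1 to 40.3 CPM at 2 h (−0.66 ± 0.30). *Ptpa*, an activator of protein phosphatase 2A, was at 33.5 to 55.0 CPM at 1 h and at 12.2 to 33.3 CPM at 2 h (−0.73 ± 0.35). The 3 were chosen after their values were seen, and *CG13229* overlaps *CG12391* and *shn*.

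**Figure D4:**
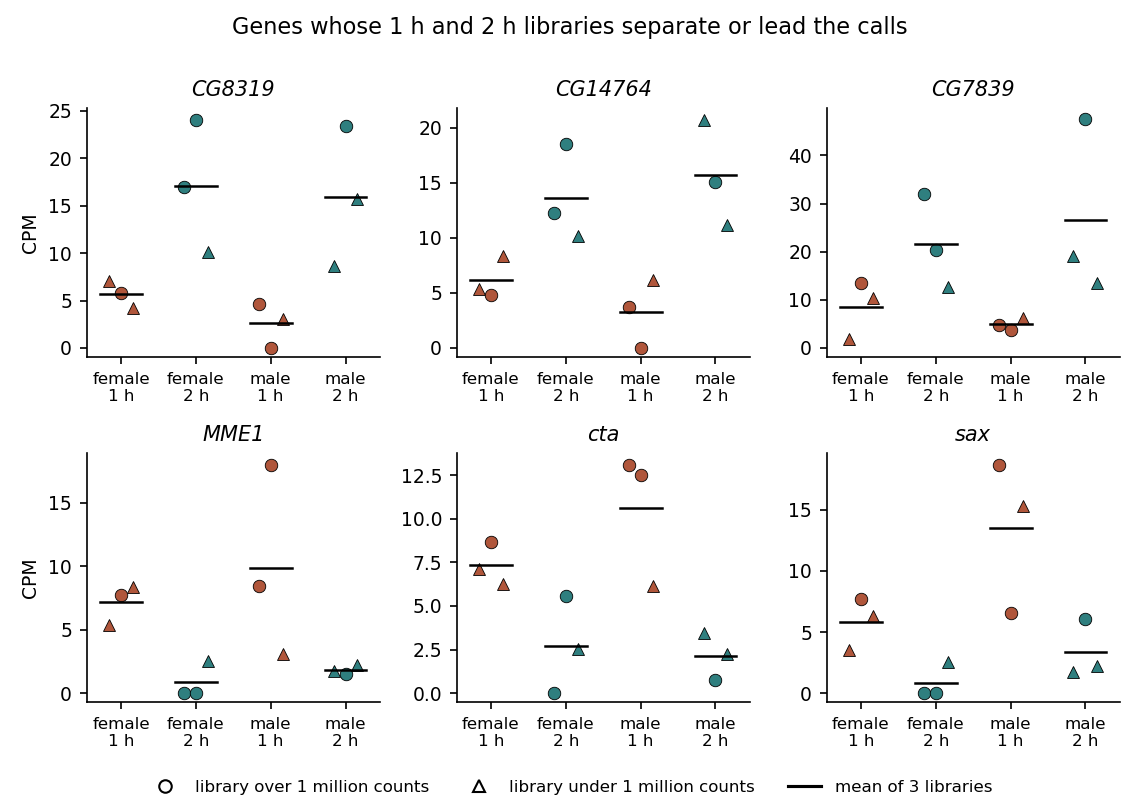
CPM (linear axes) of *CG8319*, *CG14764*, *CG7839*, *MME1*, *cta* and *sax* in each of the 12 libraries by sex and time; circles are libraries over 1000000 counts, triangles those under, and lines the mean of 3 libraries. *CG8319*, *CG14764*, *MME1* and *cta* do not overlap between the times, and the other 2 overlap in part.

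Of the 75 called genes 5 were also called with depth as a term, without male 1 h 2, without both male 1 h 1 and 2, with the replicate number as a block, by DESeq2 and by limma voom. They were *CG8319*, *CG1246* and *CG7839*, which were higher at 2 h, and *sax* and *La*, which were lower. *CG7839* was at 1.78, 13.5 and 10.5 CPM in females at 1 h and at 32.0, 20.4 and 12.7 CPM at 2 h. Males had 4.67, 3.81 and 6.14 CPM at 1 h and 19.0, 47.5 and 13.4 CPM at 2 h. Only female 2 h 3 and male 2 h 3 lie under the highest library at 1 h. The log2 FC was 1.88 ± 0.60 (p 0.00695, exact permutation p 0.01), and 1.52 (p 0.0306) without male 1 h 1 and 2.

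*CG1246* had 2 counts in all at 1 h and 33 at 2 h, a ratio of 17.9 with a 95% counting interval of 4.58 to 154. The gene passed the minimum count only through libraries at 2 h, and male 1 h 1 and 2 held 0 of its counts. It was at 11.3, 9.26 and 7.6 CPM in females at 2 h and at 8.65, 0 and 6.72 CPM in males at 2 h. So 5 of 6 libraries at 2 h lie above all of those at 1 h, whose highest value was 2.09 CPM, and controls reached 4.13 CPM. The fitted log2 FC was 3.77 ± 1.17 (p 0.0055), and 3.23 (p 0.0213) without male 1 h 1 and 2.

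*sax*, which encodes a type I receptor for BMP ligands that acts at the neuromuscular junction, was at 3.55, 7.72 and 6.28 CPM in females at 1 h and at 0, 0 and 2.53 CPM at 2 h. In males it was at 18.7, 6.54 and 15.3 CPM at 1 h and at 1.73, 6.03 and 2.24 CPM at 2 h. Within each sex the times do not overlap. The log2 FC was −2.37 ± 0.91 (p 0.0197), it was called in all 12 fits that leave out 1 library, and it was −2.66 (p 0.0189) without male 1 h 1 and 2.

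*La*, which encodes an RNA-binding protein that protects the ends of RNA polymerase III transcripts, was at 12.4, 11.6 and 16.7 CPM in females at 1 h and at 1.88, 1.85 and 2.53 CPM at 2 h. Among males it was at 9.35, 21.2 and 15.3 CPM at 1 h and at 8.65, 6.03 and 13.4 CPM at 2 h. The separation is wide in females, and the male groups overlap. Its log2 FC was −1.60 ± 0.64 (p 0.0246), and −1.97 (p 0.0147) without male 1 h 1 and 2. With sex left out of the model *La* was no longer called (−1.36, p 0.0506), while *CG8319*, *CG1246*, *CG7839* and *sax* still were.

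Further genes called higher were mostly at or near 0 at 1 h. *CG42566* had 0 counts at 1 h and 28 at 2 h, at least 10.1-fold higher taking 3 counts for the whole group as the floor. Its counts lay in 3 of the 6 libraries at 2 h, at 6.60, 7.40 and 9.81 CPM. *CG13068* had 2 and 49 counts, a ratio of 26.6 (95% counting interval 6.99 to 226), in 4 of the 6 libraries at 2 h. *c(2)M*, which encodes a part of the synaptonemal complex and overlaps *CG5861*, gave 2.89 ± 1.11 (p 0.02), or 3.21 (p 0.0224) without those libraries, with 26.4 and 20.4 CPM in female 2 h 1 and male 2 h 2. *CG42566*, *CG13068*, *c(2)M* and *CG6908* (2.18 ± 0.93) were among the 9 genes called with depth as a term and without either set of male 1 h libraries, as were the 5 above. *CG42566*, *CG13068* and *c(2)M* passed the minimum count only through libraries at 2 h. *CG42566* and *CG13068* were at 0 in male 1 h 1 and 2, so leaving these out removed none of their counts.

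*CG6836* was the most abundant of the 12 leading higher genes. Its level in females was 21.3, 27.0 and 23.0 CPM at 1 h and 85.7, 61.1 and 32.9 CPM at 2 h. Male brains held 30.8, 8.71 and 24.6 CPM at 1 h and 34.6, 30.2 and 35.8 CPM at 2 h. The female groups do not overlap, and among males 1 value at 2 h lies just under the top at 1 h. The log2 FC was 1.01 ± 0.40 (p 0.0234, exact permutation p 0.01), 0.86 without male 1 h 2 and 1.10 (p 0.0103) without both.

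*ATP8B*, which encodes a phospholipid flippase, gave 1.90 ± 0.70 (p 0.0161). In males the level was 3.74, 0.54 and 3.07 CPM at 1 h and 15.6, 43.7 and 8.96 CPM at 2 h, whereas in females the times overlap. It was called in all 12 fits that leave out 1 library, and gave 1.21 (p 0.0677) without male 1 h 1 and 2. The cytochrome P450 genes *Cyp6a8* (1.63 ± 0.68) and *Cyp4p3* (3.32 ± 1.33) were the called members of 40 tested, of which 17 were positive. Over all genes 0.481% were called higher. *Cyp6a8* was at 0.93, 0.54 and 3.07 CPM in males at 1 h and at 6.92, 15.1 and 8.96 CPM at 2 h, and *Cyp4p3*, which overlaps *hig*, was at 27.2 CPM in male 2 h 2 and at 0 in the other males. Neither was called without male 1 h 1 and 2, at 0.92 (p 0.126) and 2.38 (p 0.0855).

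*Cdc27* and *ttk* were among the better counted higher genes and were chosen after their values were seen. *Cdc27*, a subunit of the anaphase-promoting complex, was at 20.6, 7.63 and 27.6 CPM in males at 1 h and at 65.7, 76.9 and 31.4 CPM at 2 h, with a log2 FC of 1.02 ± 0.43 (p 0.0322). *ttk*, a zinc finger repressor of neuronal fate, was at 17.8, 3.81 and 39.9 CPM in males at 1 h and at 43.2, 81.5 and 71.7 CPM at 2 h, with 1.09 ± 0.49 (p 0.0418). The male groups of both genes do not overlap, and male 1 h 2 is the lowest library of each. Without male 1 h 1 and 2 they were at 0.59 (p 0.123) and 0.55 (p 0.114). *Surf1*, an assembly factor of cytochrome c oxidase named in the study, had 2.62 ± 1.19 (p 0.0438), or 2.26 (p 0.0986) without male 1 h 1 and 2, and was at 0 in 7 of the 12 libraries.

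Several genes called lower were high in male 1 h 1 and 2 alone. *DIP-delta*, which encodes an immunoglobulin-domain protein of synaptic partner recognition, was at 36.5, 33.8 and 3.07 CPM in males at 1 h and at 5.19, 9.05 and 2.24 CPM at 2 h. In females it was at 3.55, 8.69 and 4.18 CPM at 1 h and at 0.94, 0 and 2.53 CPM at 2 h. The female groups do not overlap. The log2 FC was −2.23 ± 0.79 (p 0.0134, exact permutation p 0.05), with −2.09 (p 0.0251) without male 1 h 2. Without both male 1 h 1 and 2 it fell under the minimum count and was not tested.

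*CG5597*, *CG17104* and *CG46059* had the same pattern. *CG5597* was at 33.7 and 75.2 CPM in male 1 h 1 and 2 and at 0 to 11.3 CPM in the other 10 libraries (−3.02 ± 0.95, p 0.00603). *CG17104* was at 42.1 and 60.5 CPM against 0 to 10.5 CPM (−2.75 ± 0.94, p 0.0107). *CG46059* was at 63.6 and 17.4 CPM against 0 to 5.79 CPM, with 106 counts at 1 h and 2 at 2 h. Each fell under the minimum count without male 1 h 2, so none has a value without these libraries. *Acp98AB*, the only tested marker of testis and accessory gland, was also called lower (−1.85 ± 0.82, p 0.0395), with 62.6 and 50.7 CPM in the same libraries. It was no longer called without male 1 h 2.

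*grk*, *Pen* and *dhd* were also called lower. *grk*, which encodes a TGFα-like ligand of the EGF receptor in the oocyte, was at 7.10, 3.86 and 14.6 CPM in females at 1 h and at 0 in all 3 at 2 h. Males had 12.2, 28.9 and 3.07 CPM at 1 h and 6.92, 0 and 4.48 CPM at 2 h. The log2 FC came to −3.15 ± 1.10 (p 0.012), but it overlaps *Akap200*. *Pen*, an importin α, was at 32.0 CPM in female 1 h 1 and at 54.2 and 13.1 CPM in male 1 h 1 and 2, and at 5.19 CPM or less in the other 9 libraries (−3.48 ± 1.23, p 0.0128). *dhd*, a thioredoxin of the female germ line, was at 151 CPM in female 1 h 1 and at 0.54 to 29.2 CPM in the other 11 (−1.77 ± 0.78, p 0.0391). Its value of −1.87 without male 1 h 1 and 2 still includes female 1 h 1, and none without female 1 h 1 is given here. *dhd* was called by DESeq2, but not by limma voom, with depth as a term or with the replicate number as a block. *grk* and *Pen* fell under the minimum count without male 1 h 2. Ovary markers summed to 49.7 CPM in female 1 h 1, the highest of the 12 libraries, and none of them was abundant enough to be tested.

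*CSN7*, a COP9 signalosome subunit chosen after its values were seen, was better spread over the libraries. In females it was at 17.8, 19.3 and 20.9 CPM at 1 h and at 15.1, 0.93 and 2.53 CPM at 2 h. In males it was at 35.5, 24.5 and 9.21 CPM at 1 h and at 3.46, 11.3 and 6.72 CPM at 2 h. The female groups do not overlap and in males 1 library at 1 h lies within the range at 2 h. The log2 FC was −1.60 ± 0.64 (p 0.0246), and −1.18 (p 0.142) without male 1 h 1 and 2.

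Lists of genes of brain function are described by their counts beside the 1.09% called over all genes. Of 43 tested synaptic vesicle and active zone genes 0 were called, with 25 positive and a median of 0.04. Voltage-gated ion channel genes (33 tested) gave a median of −0.05 and also had 0 called. Of 31 neuropeptide and hormone genes 0 were called and 23 were negative, with a median of −0.20 that was 0.11 without male 1 h 1 and 2. The 37 tested dpr, DIP and beat cell-surface genes held 1 call, *DIP-delta*, with 18 positive.

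Stress and injury lists were similar. Of 24 activity-induced and early response transcription factors 0 were called, and 13 were positive with a median of 0.04. The 23 JNK pathway and wound genes had 0 calls and a median of 0.02, and the 24 heat shock and chaperone genes had 0 calls, 16 negative members and a median of −0.12. Cell death genes (13 tested) had 0 calls and a median of −0.18. Without male 1 h 2 the medians of the heat shock and cell death lists were 0.04 and 0.06, and without both male 1 h 1 and 2 they were −0.03 and −0.16. The 28 endoplasmic reticulum stress genes held 1 call, *Edem1*, a lectin-like factor of protein disposal (−2.55 ± 1.15), which was at 0 in all 3 females at 2 h and could not be tested without male 1 h 2.

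Lists of mitochondria and translation had medians near 0, and most turned upward without male 1 h 1 and 2. The list of mitochondrial dynamics, mitophagy and study-named mitochondrial genes moved little, from 0.03 to 0.05. The 67 respiratory chain and ATP synthase genes had 41 positive members, a median of 0.05 (0.17 without those libraries) and 0 calls, and the 84 cytosolic ribosomal protein genes had a median of −0.01 (0.24) and 0 calls. The 67 mitochondrial ribosomal protein genes had a median of −0.08, with 0.17 in females, −0.41 in males and 0.33 over both sexes without male 1 h 1 and 2. Vacuolar ATPase subunits (19 tested, 16 negative) gave −0.14, and 0.20 without male 1 h 1 and 2. Gut markers were the list that moved furthest upward, at 0.69 with 10 of 11 positive and 0 called, and were at 0.31 without those libraries. Of the 13 tested genes named in the study 1 was called higher, *Surf1*, and 1 lower, *AttC*, against 0.481% and 0.612% of all genes. In males 5 were called lower (3.21% of all genes), *AttC*, *CecA1*, *CecA2*, *CecB* and *aralar1*, with a median of −2.03. The median over both sexes was −0.50, and 0.26 without male 1 h 1 and 2. The study named its genes from results on this same series, and gave the 5 lower in males as decreased after injury in males. The shares of this list are therefore no independent measure.

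**Figure D5:**
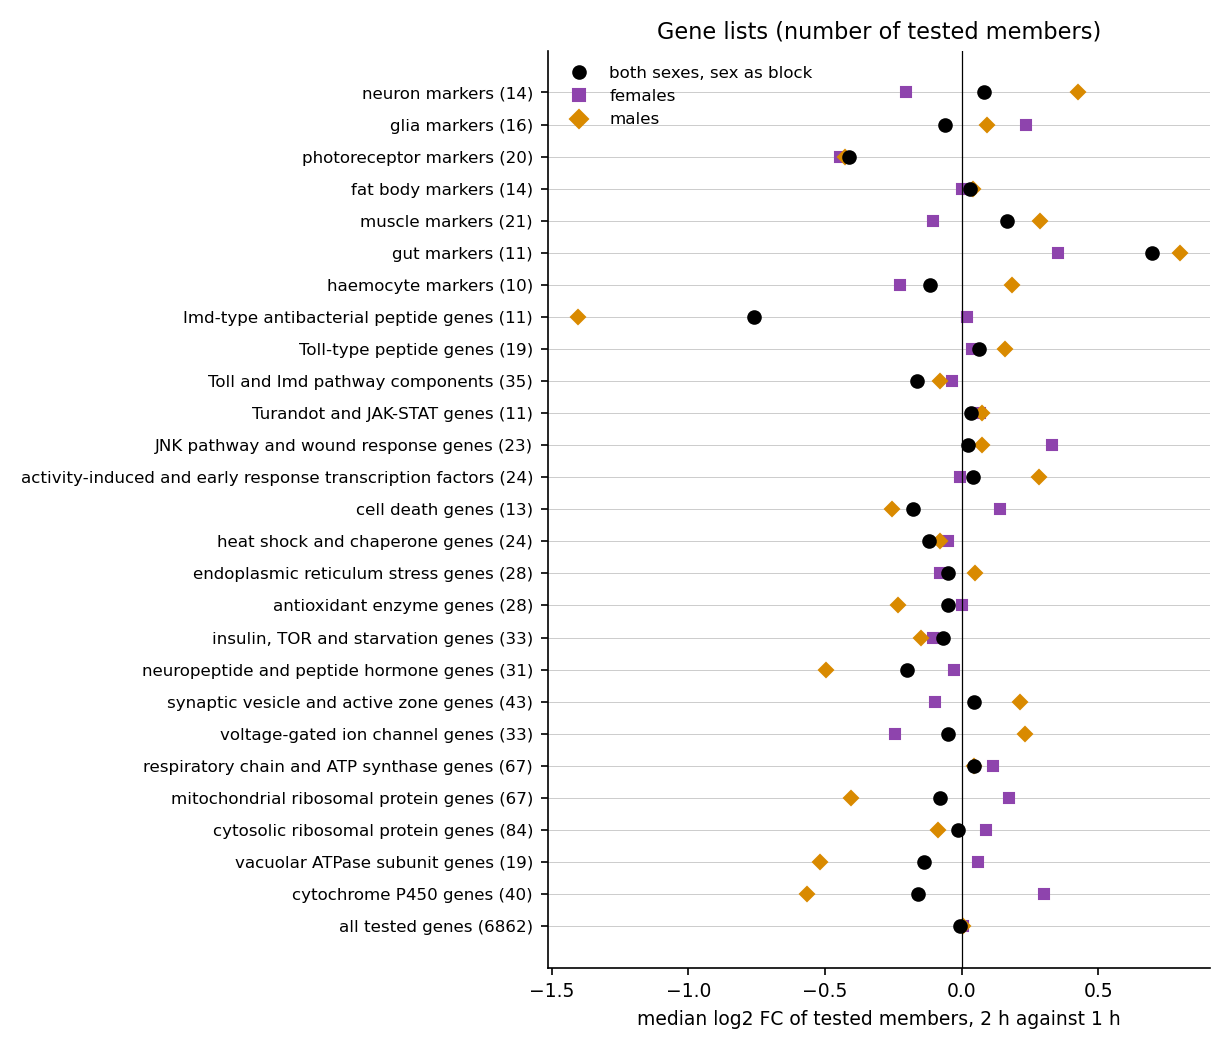
Median log2 FC (2 h over 1 h) of the tested members of each gene list, over both sexes with sex as block (black), in females (purple) and in males (orange), with the number of tested members in brackets. Most black points lie near the −0.01 of all tested genes; the Imd-type peptide genes lie at −0.76 and the gut markers at 0.69.

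Taken within each label of sex, other genes were called between the times. In females 71 genes were called (1.03%), 42 higher (0.612%) and 29 lower (0.423%), and in males 324 (4.72%), 104 higher (1.52%) and 220 lower (3.21%), with no gene at FDR under 0.05 in either sex by edgeR's quasi-likelihood test, and 71 (1.03%) and 339 (4.94%) under p 0.05 at any fold. Where no gene differs, a share of 0.05 is nominally under p 0.05, and neither sex exceeded it. Positive values made up 50.5% of all genes in females and 50.2% in males. Across fits that leave out 1 library the count ran from 30 (without female 1 h 1) to 282 (without female 2 h 3) in females, and from 143 (without male 1 h 2) to 1348 (without male 1 h 3) in males, with 10 genes at FDR under 0.05 in the last. No gene was called in both sexes in the same direction. In opposite directions 11 genes were called (0.160%): *GILT1*, *Jra*, *CG12699*, *CG13069*, *alc*, *CG9512*, *CG14767*, *Cdc5*, *CG8833*, *Cat* and *f-cup*.

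The test of the difference between the sexes (interaction) called 326 genes (4.75%), 66 with a higher (0.962%) and 260 with a lower (3.79%) change in males, and none at FDR under 0.05 by edgeR (1 by limma voom), although 327 were under p 0.05 at any fold (4.77%). This share too is not above the nominal 0.05. *GILT1*, a lysosomal thiol reductase, was at 5.33, 10.6 and 8.37 CPM in females at 1 h and at 40.5, 39.8 and 7.6 CPM at 2 h. Among males it was at 74.8, 134 and 15.3 CPM at 1 h and at 8.65, 21.1 and 6.72 CPM at 2 h. The 5 highest libraries all have over 1000000 counts. *GILT1* differed between deep and shallow libraries by 2.50 on the log2 scale (edgeR adjusted p 0.00629), and its interaction was −4.39 ± 1.14 (p 0.00171), or −2.99 ± 0.97 (p 0.00732) with depth as a term. *CR44987*, a noncoding RNA gene that overlaps *dbr*, was at 0 in all 3 males at 1 h and at 20.7, 26.4 and 13.4 CPM at 2 h. In females it was at 3.55, 13.5 and 14.6 CPM at 1 h and at 5.65, 8.33 and 2.53 CPM at 2 h, and it did not differ by depth beyond error (−0.26, adjusted p 0.874).

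Of the 326 genes 91 (27.9%) differed between libraries over and under 1000000 counts at FDR under 0.05, against 16.2% of all genes. With depth as a term the interaction called 139 genes (2.03%), 83 higher and 56 lower in males, of which 99 were among the 326. Without male 1 h 2, 180 genes were called, 125 of them among the 326, and without male 1 h 3 there were 1318. Since the deep libraries are mostly male at 1 h and female at 2 h, depth and the interaction cannot be fully told apart here.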

How the data were processed

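The count values are reads per gene for each of 24 libraries, each of 1 brain, which the authors deposited without normalization. Their reads (QuantSeq 3′ libraries, 50 bases) were sorted with CASAVA 1.8.2, aligned with STAR 2.4 (genome build dm3) and counted with HTSeq. Annotation version and strand setting are not given in the sources used here, so reads of overlapping genes may not be told apart. Without unique molecular identifiers in the table, intervals cover counting error only. The deposited comparison tables (log2 fold changes, average CPM, likelihood ratios, p-values and FDR of injured against control, from the authors' edgeR 3.22.3) were not used.

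Rows that name no gene stayed out of library sizes. They held, per library, 12.2 to 27.7% for reads with more than 1 place, 7.16 to 8.42% for ambiguous reads and 1.98 to 7.19% for reads outside genes. *MRE16*, a high-copy transcript, took 0.613 to 20.3% of gene counts. Replicates correlated at r of 0.478 to 0.957 across genes, and no pair agreed within sampling noise (chi-square per gene 2.71 to 68.2).

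Genes with at least 5 counts in at least 3 of the 12 libraries (6862) were tested in R 4.3.3 by edgeR 4.0.16 (robust quasi-likelihood F-test, TMM factors, sex and time as terms). Changes within a sex and the interaction came from 1 fit of 4 groups of sex and time. The SE is |log2 FC| divided by the square root of F. Adjusted p and FDR are Benjamini-Hochberg values over all tested genes. The exact permutation test was two-sided, on log2(CPM + 5) with times permuted within each sex. Printed CPM use TMM factors over all 24 libraries. The scripts were tested on simulated data. Nothing in the labels says that libraries differ beyond being separate brains, so p-values measure the spread between these libraries.

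Alternatives used DESeq2 1.42.0 and limma 3.58.1 (voom), RLE factors, other filters and models, each library left out, and, chosen after seeing the data, a depth term, libraries over or under 1000000 counts, and both male 1 h libraries 1 and 2 left out. Symbols matched RefSeq release 6 for 16861 of 16995 rows, used only for names and neighbours: 21 of the 75 called genes share part of their span with another tested gene. The members and the 49 gene lists (4456 entries matched, 31 not) were chosen with earlier results of these data known. Genes were named by a rule: the 12 of lowest p called in each direction, up to 3 called (or the 2 most abundant) members of each list, the genes named in the study, and the 5 of lowest p in each direction of the interaction. Genes outside it are marked in the text.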

Additional observations from a re-analysis of the deposited data

Results flagged for a closer look

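The change from 1 h to 2 h differed between the labelled sexes at an unadjusted p under 0.05 for 18 of the 165 genes compared one by one, 12 with a lower and 6 with a higher change in males. Of these, 10 were named for their low p in this same test (5 in each direction), so the number is no measure of how often the sexes differ. They are *CG12699*, *GILT1*, *Mst57Db*, *CG11700*, *CG13069*, *CR44987*, *CG8833*, *CG8952*, *CG11170* and *CG14692*. The edgeR adjusted p was 0.883 for each. Values are the male minus the female log2 FC. Lower in males were *CG12699* (−9.63), *GILT1* (−4.39), *Mst57Db* (−13.88), *CG11700* (−4.56), *CG13069* (−10.35), *aralar1* (−3.90), *CG9733* (−4.19), *CG42656* (−3.80), *ImpL2* (−1.85), *CecB* (−4.46), *mRpL55* (−4.40) and *yip2* (−3.14). Higher in males were *CR44987* (8.0), *CG8833* (7.42), *CG8952* (6.49), *CG14692* (7.33), *CG11170* (5.72) and *dbr* (4.82). For *Mst57Db*, *CG13069*, *CR44987*, *CG11170*, *CG14692* and *dbr* at least 1 group of 3 libraries was at 0 counts, so their fitted values depend on the prior count and bound nothing.

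*CG12699*, which overlaps *mbl*, was at 0, 0.97 and 0 CPM in females at 1 h and at 21.7, 6.48 and 5.07 CPM at 2 h. Males had 52.3, 16.3 and 6.14 CPM at 1 h and at 1.73, 0 and 0 CPM at 2 h. The groups do not overlap within either sex, and the directions are opposite. The interaction had p 0.000323, and 0.00148 with depth as a term. *Mst57Db*, an accessory gland gene, was at 149 and 94.8 CPM in male 1 h 1 and 2 and at 8.48 CPM or less in the other 10 libraries.

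Of the genes named in the study, *aralar1*, a mitochondrial carrier of aspartate and glutamate, was at 17.8, 20.3 and 27.2 CPM in females at 1 h and at 58.4, 40.7 and 27.9 CPM at 2 h. In males it was at 30.8, 121 and 33.8 CPM at 1 h and at 17.3, 0 and 8.96 CPM at 2 h. Its interaction had p 0.00976, and 0.0174 with depth as a term. With that term *ImpL2* had p 0.0600, *CG9733* 0.0809, *CecB* 0.137, *CG42656* 0.219, *mRpL55* 0.396 and *yip2* 0.512. Without male 1 h 2 the interaction of *CG42656* was 0.17 (edgeR p 0.782) and that of *ImpL2* −0.91 (p 0.111). In the same fit *mRpL55* had −2.60 (p 0.185), *yip2* −1.60 (p 0.216) and *CG9733* −3.10 (p 0.0897). *Mst57Db* could not be tested there, and the other flagged genes stayed under p 0.05.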

How the results depend on the processing

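No gene reached FDR under 0.05 over both sexes under any alternative run. Over both sexes the 75 calls (33 higher, 42 lower) became 120 by DESeq2 (44 and 76), 114 by the likelihood ratio test (48 and 66), 347 with no filter (84 and 263), 40 with filterByExpr, 229 with all 24 libraries in 8 groups, 128 without libraries under 400000 counts, 34 in libraries over 1000000 counts, 36 at |log2 FC| over 2 (18 and 18) and 210 without male 1 h 1 and 2 (171 and 39). The count stayed within 1.5 times for RLE factors (80), voom (88, of which 19 were among the 75), no sex block (79), 4 groups (110), without *MRE16* and *noe* (77) and in libraries under 1000000 counts (61). A like count does not mean the same genes. Of the 61 only 2 were among the 75, of which 29 could be tested there. Of the 34 in libraries over 1000000 counts 11 were among the 75. Leaving out 1 library gave 44 (male 2 h 2) to 108 (male 1 h 3). In females the 71 calls became 494 by voom, 122 with no filter and 126 with all 24 libraries, and 30 to 282 with 1 library left out. In males the 324 became 871 by voom, 679 with no filter and 523 with all 24 libraries, and 143 to 1348 with 1 left out. The 326 interaction calls became 1438 by voom (918 higher, 520 lower in males), 638 with no filter, 502 with all 24 libraries and 139 with depth as a term, and 180 to 1318 with 1 left out. The causes were not tested.

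Replicate numbers are shared by the groups, and whether they pair the libraries is not settled here. Deviations of same-numbered libraries at 1 and 2 h correlated at −0.09, 0.36 and 0.28 in females and at −0.32, 0.34 and 0.60 in males. Those of different-numbered libraries ran from −0.44 to 0.25 in females and from −0.60 to 0.43 in males. Libraries numbered 2 were all over 1000000 counts and those numbered 3 all under it, so number and depth cannot be fully told apart. With the replicate block there were 57 calls over both sexes (22 and 35), 43 of them among the 75, and 89 in females, 335 in males and 409 in the interaction. Of the single genes only *Acp98AB* changed sign after being called, at 0.10 in libraries under 1000000 counts. Among values of single genes under the alternatives 3528 kept their side of the threshold, 614 lost and 9 gained a call. These values cover 155 genes, and only the 75 called ones could lose a call, so the numbers do not measure how stable the calls are. Depth is a limit: 3 counts correspond to 1.60 to 10.3 CPM by library, and many called genes lie near these levels.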
